A study of Homo sapiens with 30 samples.

Results

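The secreted signals of the WNT, FGF, BMP/GDF and hedgehog families, with NODAL, LEFTY and inhibin genes and the secreted antagonists, are 55 genes that tell cells of an embryo what to become. They were taken as a list of names, chosen with earlier results of these data known. All 55 were found in the gene annotation on chromosomes 1 to 22, and they were set beside all 19229 protein-coding genes of those chromosomes. The list holds 18 WNT ligands, 10 FGF ligands, 11 BMP and GDF ligands, 3 hedgehog ligands, 5 NODAL, LEFTY and inhibin genes, and 8 secreted antagonists. For each gene, peaks were taken within the gene and 5 kb on each side, called the gene window, and a promoter peak was one that reached within 1 kb of the 5′ end of the gene.

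Trimethylation of histone H3 at lysine 27 (H3K27me3) is laid down by Polycomb repressive complex 2. In differentiated cells it typically covers CpG-rich promoters of silent developmental regulators. Genes for secreted developmental signals are a classical class of such targets, since each is needed in few tissues and at few times. Trimethylation at lysine 9 (H3K9me3) is made by another set of enzymes and marks constitutive heterochromatin, repeats and zinc finger gene clusters.

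Both marks were profiled by ChIP-seq in HEK293T cells, a line of human embryonic kidney origin with the large T antigen of SV40, collected 48 hours after transfection with antisense oligonucleotides (ASOs). H3K27me3 was profiled with a negative control ASO (NC) and ASOs against the long noncoding RNAs LINC00641 (ΔLINC00641) and SETD5-AS1 (ΔSETD5-AS1), and H3K9me3 with NC and ASOs against LINC00662 (ΔLINC00662). The header line of each H3K27me3 knockdown list names 1 numbered ASO, and that of ΔLINC00662 names a mix of ASOs. Each of the 10 groups (ChIP and input for every condition) had 3 replicates, which were merged before peaks were called, so every condition is 1 peak list without a spread between replicates. No test between conditions was made, and the values below describe 5 pooled lists. Peak lists hold no RNA levels, so neither the knockdowns nor the identity of the cells was checked here. The estimated depth was between 34.6 M and 45.0 M fragments per list. At the genome-wide input level the weakest called peaks held 11 or 12 fragments at their summit, so the absence of a peak means a signal under the calling threshold and not the absence of the mark. Intervals are 95% intervals for counting error only.

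The upstream 250 bases of 6 genes are shown to let the base composition beside the peaks be read. They belong to the member of each family with the strongest NC H3K27me3 promoter peak by −log10 q, and to WNT2B, which had no promoter H3K27me3 peak in any list. The Ensembl canonical transcript of WNT2B starts 42424 bp into the gene, so its stretch is not beside that start. The NODAL, LEFTY and inhibin genes had no such peak and are not represented. Sequences are from GRCh37 (hg19 coordinates), are read 5′ to 3′ towards the gene, and have every CpG in capitals.
WNT3A (chr1:228194449-228194698, plus strand): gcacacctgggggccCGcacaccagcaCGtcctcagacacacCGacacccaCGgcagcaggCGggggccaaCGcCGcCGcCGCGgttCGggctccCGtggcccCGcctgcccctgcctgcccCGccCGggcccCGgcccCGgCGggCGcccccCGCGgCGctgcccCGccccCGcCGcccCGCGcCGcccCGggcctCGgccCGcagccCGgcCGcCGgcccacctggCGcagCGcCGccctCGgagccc
FGF3 (chr11:69634185-69634434, minus strand): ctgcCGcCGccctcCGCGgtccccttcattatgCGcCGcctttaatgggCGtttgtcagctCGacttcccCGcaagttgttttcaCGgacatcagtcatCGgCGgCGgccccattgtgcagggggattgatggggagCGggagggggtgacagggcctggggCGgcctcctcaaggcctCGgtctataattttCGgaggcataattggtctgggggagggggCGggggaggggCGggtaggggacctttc
BMP6 (chr6:7726082-7726331, plus strand): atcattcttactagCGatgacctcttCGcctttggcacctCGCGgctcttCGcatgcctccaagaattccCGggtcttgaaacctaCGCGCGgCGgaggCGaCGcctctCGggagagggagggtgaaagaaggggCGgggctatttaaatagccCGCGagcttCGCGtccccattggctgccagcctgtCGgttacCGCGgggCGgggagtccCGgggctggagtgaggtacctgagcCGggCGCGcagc
SHH (chr7:155605158-155605407, minus strand): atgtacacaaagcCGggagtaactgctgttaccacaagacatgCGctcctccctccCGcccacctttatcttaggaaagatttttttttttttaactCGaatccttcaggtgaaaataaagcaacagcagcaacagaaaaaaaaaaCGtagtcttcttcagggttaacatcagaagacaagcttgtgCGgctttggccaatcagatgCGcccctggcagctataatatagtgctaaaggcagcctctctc
SFRP5 (chr10:99531757-99532006, minus strand): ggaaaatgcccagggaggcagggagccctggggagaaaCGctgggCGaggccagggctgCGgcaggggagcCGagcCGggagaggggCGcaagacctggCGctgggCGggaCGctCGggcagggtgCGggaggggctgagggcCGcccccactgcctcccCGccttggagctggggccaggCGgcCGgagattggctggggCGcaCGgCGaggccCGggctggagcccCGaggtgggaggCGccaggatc
WNT2B (chr1:113008913-113009162, plus strand): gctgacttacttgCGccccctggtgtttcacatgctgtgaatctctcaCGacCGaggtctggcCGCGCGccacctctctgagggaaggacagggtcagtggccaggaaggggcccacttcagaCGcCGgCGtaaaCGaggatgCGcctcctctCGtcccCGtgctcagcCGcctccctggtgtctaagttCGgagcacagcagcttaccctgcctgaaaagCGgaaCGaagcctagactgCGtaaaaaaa

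The WNT3A stretch held 38 CpG and was 86.0% GC, and the SHH stretch held 7 CpG and was 44.4% GC. The FGF3, BMP6, SFRP5 and WNT2B stretches held 19, 26, 21 and 18 CpG, and the median over all 19229 genes was 14. All 250 bases of the SHH stretch lay under a peak in each of the 3 H3K27me3 lists. None of the bases printed for WNT3A, FGF3, BMP6 or WNT2B lay under a peak of any list, and the SFRP5 stretch only had 47 bases under a peak, in ΔSETD5-AS1. The strongest peaks of WNT3A, FGF3 and BMP6 thus stood beside the bases shown and not on them.

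H3K27me3 was found at the promoters of a minority of the signal genes. In NC, 17 of 55 (30.9%) had a promoter peak, beside 6.78% of all protein-coding genes. The count was 17 (30.9%) in ΔLINC00641, beside 7.15%, and 16 (29.1%) in ΔSETD5-AS1, beside 6.55%. With the whole gene window, 25 members (45.5%) had a peak in NC, beside 14.6% of all genes, 28 (50.9%) in ΔLINC00641, beside 14.6%, and 24 (43.6%) in ΔSETD5-AS1, beside 14.9%. H3K9me3 was laid out differently. No member had an H3K9me3 promoter peak in NC and 1 had one in ΔLINC00662, where all genes stood at 5.37% and 4.30%. In the gene windows, 15 members (27.3%) had an H3K9me3 peak in NC and 14 (25.5%) in ΔLINC00662, both below the 38.1% and 32.4% of all genes. A longer window has more room for a peak, and the window shares of either mark were not matched for length.

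**Figure D1:**
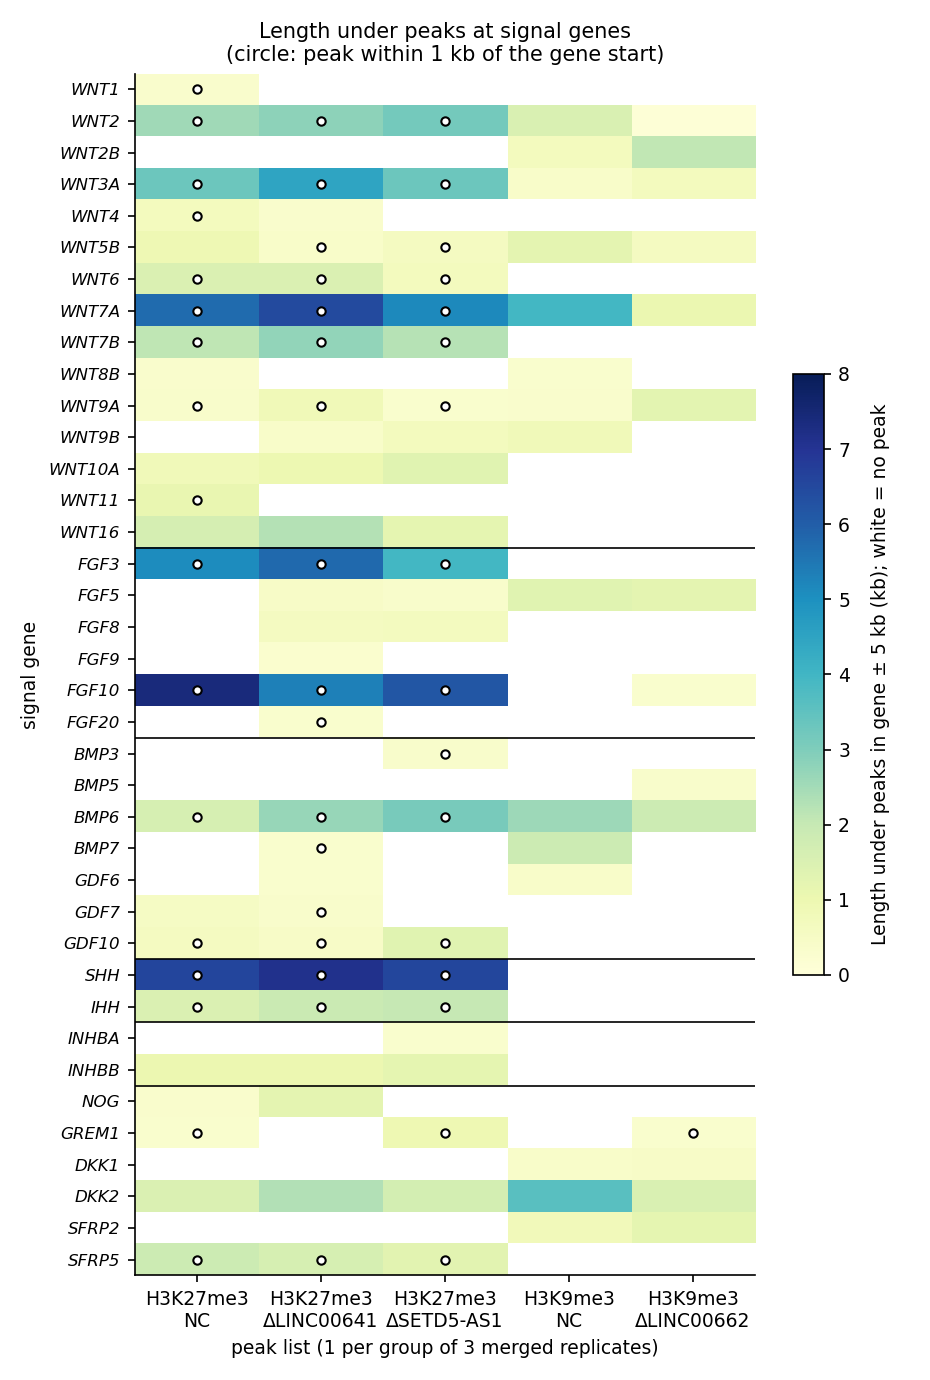
Each row is 1 of the 38 signal genes with a peak in at least 1 list and each column 1 of the 5 peak lists, the colour gives the length under peaks in the gene and 5 kb on each side (kb), and circles mark a promoter peak. FGF10, SHH, WNT7A and FGF3 carry between 3.96 and 7.38 kb of H3K27me3 in each of its 3 lists, and the H3K9me3 columns have a single circle, at GREM1.

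Of the 55 windows, those of WNT1 and WNT10B, WNT3 and WNT9B, and WNT6 and WNT10A overlap, which leaves 52 separate stretches with 2635 kb in all. They held 55 H3K27me3 peaks over 49.5 kb in NC, 53 over 55.1 kb in ΔLINC00641 and 60 over 48.5 kb in ΔSETD5-AS1. No NC peak was counted for more than 1 member. Within 1 kb of the gene starts, an H3K27me3 peak covered 16.4% of the bases in NC, beside 15.3% in ΔLINC00641 and 15.0% in ΔSETD5-AS1. The same measure over all protein-coding genes was 3.20%, 3.41% and 3.04%. Over the whole windows the share was only 1.88% in NC, beside 1.57% for all genes, so the difference from other genes lay close to the starts. The NC peaks in the windows had a median length of 536 bp and a median fold enrichment of 3.26, beside 516 bp and 3.3 for all autosomal peaks. Their −log10 q and GC content differed more, with medians of 4.94 beside 3.72 and of 59.1% beside 45.2%.

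WNT ligands are lipid-modified proteins that bind Frizzled receptors. An NC promoter peak was found at 9 of 18, and a peak anywhere in the window at 13 of 18. WNT7A (chr3:13857755-13921568, minus strand), a signal of the dorsal limb, was the most widely covered of the family. It had 5 NC peaks over 5716 bp, 4 over 6457 bp in ΔLINC00641 and 6 over 5137 bp in ΔSETD5-AS1. Its strongest peak, chr3:13917843-13921369, began just inside the gene and covered intron sequence, with 62 fragments at the summit in NC (47.5 to 79.5), a fold enrichment of 8.22 and a local input of 1.73 times the genome-wide level. The overlapping peaks held 75 fragments (59.0 to 94.0) at 7.30-fold and 2.49 times input in ΔLINC00641, and 69 (53.7 to 87.3) at 5.55-fold and 2.62 times input in ΔSETD5-AS1. The 3 fragment intervals overlap, while the local input was higher in both knockdown lists. Fragments here and below are not scaled for depth, which differed between the lists.

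WNT3A (chr1:228194699-228248972, plus strand), which activates β-catenin signalling in the early embryo, had a peak on each side of its start in every H3K27me3 list. The windows held 2 peaks over 3290 bp in NC, 3 over 4489 bp in ΔLINC00641 and 2 over 3299 bp in ΔSETD5-AS1. The upstream peak held 78 fragments in NC (61.7 to 97.3) at 6.54-fold and 2.88 times input, 81 (64.3 to 101) at 7.72-fold and 2.54 times input in ΔLINC00641, and 67 fragments at 3.82-fold and 3.78 times input in ΔSETD5-AS1. In ΔSETD5-AS1 the strongest peak was the intronic one, with 68 fragments (52.8 to 86.2) at 4.41-fold and 3.3 times input. WNT2 (chr7:116915505-116963206, minus strand), a lung and placenta signal, was covered over all 2001 bp around its start in all 3 lists. Its window held 1 peak over 2561 bp in NC, 2 over 2805 bp in ΔLINC00641 and 3 over 3172 bp in ΔSETD5-AS1. The promoter peak had 31 fragments in NC (21.1 to 44) at 3.82-fold and 1.92 times input, 55 (41.4 to 71.6) at 5.61-fold and 2.37 times input in ΔLINC00641, and 37 (26.1 to 51.0) at 3.96-fold and 1.94 times input in ΔSETD5-AS1.

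WNT7B, WNT6 and WNT9A also had promoter peaks in all 3 H3K27me3 lists. WNT7B, a signal of the lung and of brain vessels, had 2122 bp under 3 peaks in NC, 2724 bp in ΔLINC00641 and 2227 bp in ΔSETD5-AS1. WNT6 had 1474 bp in NC, 1471 bp in ΔLINC00641 and 675 bp in ΔSETD5-AS1, where the intronic peak of the other lists was not called. WNT9A, a signal of forming joints, had a weak peak in NC, with 25 fragments at 2.02-fold and a −log10 q of 1.77. In NC, 4 further WNT genes had H3K27me3 only away from the 5′ end of the gene. They were WNT10A, which is needed for teeth, with 805 bp in NC, 980 bp in ΔLINC00641 and 1331 bp in ΔSETD5-AS1, WNT16, with 1645, 2252 and 1208 bp in the same order, WNT5B, with 917 bp in NC, and WNT8B, with 333 bp in NC and none in the other lists.

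FGF ligands bind receptor tyrosine kinases. Only FGF10 and FGF3 had NC promoter peaks, and these 2 genes held all 12.5 kb of the family's NC coverage. FGF10 (chr5:44300349-44389808, minus strand), which drives outgrowth of limb buds and lung, had the largest covered length of any member in NC, 10 peaks over 7381 bp. It had 6 peaks over 5334 bp in ΔLINC00641 and 9 over 6167 bp in ΔSETD5-AS1. Its promoter peak, chr5:44387301-44391077, also overlaps the antisense gene FGF10-AS1, and had 42 fragments in NC (30.3 to 56.8) at 4.67-fold and 2.13 times input. In ΔLINC00641 the strongest promoter peak had 38 fragments (26.9 to 52.2) at 3.6-fold and 2.6 times input, and the largest fold enrichment of the window, 4.03, stood at an intronic peak of 22 fragments. In ΔSETD5-AS1 the promoter peak had 39 fragments (27.7 to 53.3) at 2.71-fold and 3.11 times input, and the largest fold enrichment, 5.15, was at an intronic peak 51888 bp into the gene with 27 fragments at the genome-wide input level. The other 9 NC peaks of FGF10 were intronic, at most 714 bp long, and spread from 10173 to 83523 bp into the gene.

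FGF3 (chr11:69624736-69634184, minus strand), a signal for the inner ear, had 26.1% of its window covered in NC, 29.6% of it in ΔLINC00641 and 20.3% in ΔSETD5-AS1. These were 2 peaks over 5077 bp, 2 over 5761 bp and 3 over 3957 bp. The main peak, chr11:69629098-69633471, had 45 fragments in NC (32.8 to 60.2) at 6.65-fold and 1.54 times input, 62 (47.5 to 79.5) at 7.62-fold and 1.92 times input in ΔLINC00641, and 59 (44.9 to 76.1) at 7.83-fold and 1.5 times input in ΔSETD5-AS1. FGF4 and FGF19, which lie on the same arm of chromosome 11, had no H3K27me3 peak in any list.

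Hedgehog ligands signal through PTCH1 and SMO. SHH (chr7:155592674-155605157, minus strand), which patterns the limb and the neural tube, had the H3K27me3 promoter peak with the highest −log10 q of the 55 genes in all 3 lists (38.7 in NC, then 52.7 with ΔLINC00641 and 35.3 with ΔSETD5-AS1). By fold enrichment WNT7A was higher in NC and FGF3 in ΔSETD5-AS1. Its window held 3 peaks over 6569 bp in NC, 3 over 7107 bp in ΔLINC00641 and 4 over 6557 bp in ΔSETD5-AS1, between 29.2% and 31.6% of the window. The peak over the start, chr7:155602725-155606816, had 80 fragments in NC (63.4 to 99.6) at 7.26-fold and 2.64 times input. It had 102 (83.2 to 124) at 7.89-fold and 3.19 times input in ΔLINC00641, and 86 (68.8 to 106) at 6.07-fold and 3.01 times input in ΔSETD5-AS1. IHH (chr2:219919146-219925643, minus strand), the hedgehog of growth plate cartilage, had 3 short peaks in each list, over 1472, 1923 and 2014 bp. The peak upstream of its start had 41 fragments in NC (29.4 to 55.6) at 6.63-fold and 1.38 times input, 50 (37.1 to 65.9) at 6.88-fold and 1.70 times input in ΔLINC00641, and 34 (23.5 to 47.5) at 3.09-fold and 2.33 times input in ΔSETD5-AS1. The largest fold enrichment of IHH in ΔSETD5-AS1, 3.49, was at a peak farther upstream with 22 fragments. DHH, the third ligand, had no peak in any list.

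**Figure D2:**
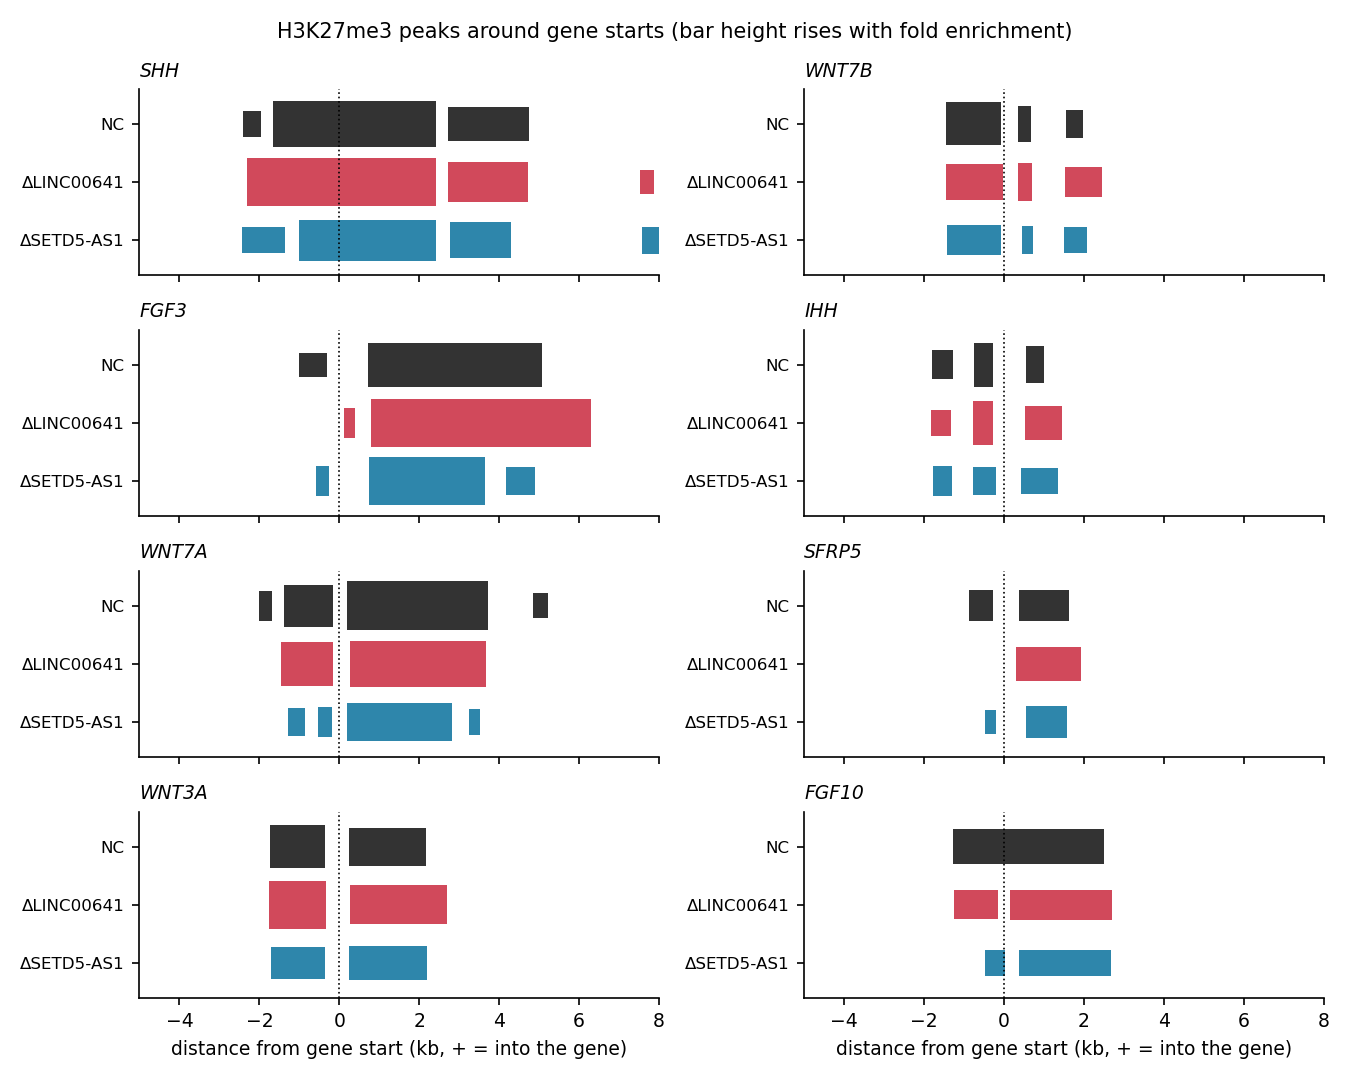
Peaks of the 3 H3K27me3 lists are drawn by their distance from the gene start (kb, positive into the gene) for 8 of the 13 genes with promoter peaks in all 3 lists, each bar being 1 peak whose height rises with its fold enrichment. SHH is covered across the start in all lists, while WNT3A, WNT7A, WNT7B and IHH have peaks on both sides of an open gap.

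BMP and GDF ligands belong to the TGF-β superfamily, and few carried the mark. BMP6 (chr6:7726332-7881961, plus strand), which controls hepcidin and so iron, had 3 NC peaks over 1601 bp, 3 over 2663 bp in ΔLINC00641 and 4 over 3125 bp in ΔSETD5-AS1. Its largest fold enrichment was 3.82 in NC, with 31 fragments at 1.92 times input, and 3.94 in ΔLINC00641, with 45 fragments at 2.83 times input, both at an exonic summit. In ΔSETD5-AS1 it was 2.89, with 32 fragments at 2.35 times input, upstream of the start. GDF10 had 600, 456 and 1316 bp in the same order, with fold enrichments of 2.73, 3.88 and 2.97 from 23, 28 and 22 fragments at 2.02, 1.71 and 1.52 times input. The NC peak lay inside the gene and the ΔLINC00641 peak upstream of it, so these 2 promoter peaks do not overlap. GDF7, a roof plate signal of the spinal cord, had 526 bp in NC (2.70-fold, 19 fragments, 1.66 times input), 370 bp in ΔLINC00641 (2.06-fold, 24 fragments, 2.94 times input) and none in ΔSETD5-AS1.

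Among the NODAL, LEFTY and inhibin genes, which also encode TGF-β superfamily signals, INHBB (chr2:121103712-121109379, plus strand), the βB subunit of activins and inhibins, was the only one with H3K27me3 in NC. Its peaks stood upstream, just over 1 kb from the start, and covered 1024 bp in NC, 1024 bp in ΔLINC00641 and 1186 bp in ΔSETD5-AS1. The summit nearest to the start had 33 fragments in NC (22.7 to 46.3) at 5.01-fold and 1.5 times input, 46 (33.7 to 61.4) at 5.69-fold and 1.92 times input in ΔLINC00641, and 34 (23.5 to 47.5) at 3.81-fold and 1.84 times input in ΔSETD5-AS1. INHBA, the βA subunit, had a single peak of 289 bp, in ΔSETD5-AS1. NODAL, LEFTY1 and LEFTY2 had none in any list.

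Of the 8 antagonists, which bind ligands or their coreceptors outside the cell, SFRP5 and GREM1 had NC promoter peaks. SFRP5 (chr10:99526508-99531756, minus strand), a secreted WNT-binding protein, had 2 peaks over 1857 bp in NC, 1 over 1621 bp in ΔLINC00641 and 2 over 1308 bp in ΔSETD5-AS1. Its strongest peak had 40 fragments (28.6 to 54.5) at 3.78-fold and 2.56 times input in NC, 40 (28.6 to 54.5) at 4.55-fold and 2.12 times input in ΔLINC00641, and 41 (29.4 to 55.6) at 4.13-fold and 2.07 times input in ΔSETD5-AS1. DKK2, which binds the WNT coreceptor LRP6, had 1480, 2289 and 1668 bp, with largest fold enrichments of 4.11, 3.08 and 3.54 from 30, 39 and 37 fragments at 1.70, 3.16 and 2.2 times input. NOG (noggin), a BMP antagonist, had 320 bp upstream in NC (2.18-fold, 20 fragments, 2.24 times input), 1244 bp downstream in ΔLINC00641 (3.18-fold, 31 fragments, 2.4 times input) and none in ΔSETD5-AS1. Altogether 21 of the 55 genes had no H3K27me3 peak in any list. They were WNT2B, WNT3, WNT5A, WNT10B, FGF4, FGF17, FGF18, FGF19, BMP2, BMP4, BMP5, BMP8A, GDF5, DHH, NODAL, LEFTY1, LEFTY2, CHRD, DKK1, SFRP1 and SFRP2.

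The 5′ end of a gene is not always its main start, and 14 members had the start of their Ensembl canonical transcript over 1 kb away from it. With the canonical start, 19 members had an H3K27me3 promoter peak in NC, 20 did in ΔLINC00641 and 18 in ΔSETD5-AS1, beside 7.09%, 7.50% and 6.87% of all genes. DKK2 was the clearest case. Its annotated 5′ end lies 247493 bp upstream of the canonical start, and the peak chr4:107957640-107958290 stands next to the latter, at position 107957470. WNT16 had peaks at its canonical start in all 3 lists, and FGF8, a signal of the limb ridge and the midbrain boundary, in both knockdown lists but not in NC.

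H3K27me3 around these starts had a dip at the start itself, a pattern chosen for description after the values were seen. Of the 17 members with an NC promoter peak, 4 (WNT2, WNT4, FGF10 and SHH) had the first base of the gene under a peak, 7 had peaks on both sides of an uncovered start and 6 on a single side. In ΔLINC00641 the start was covered in 3 of 17, and in ΔSETD5-AS1 in 4 of 16. Among all protein-coding genes with a promoter peak the start was covered in 39.2%, 39.1% and 36.9%. At 550 bp into the gene, 23.6% of the 55 members lay under an NC peak, and at 50 bp on either side of the start 7.27% did. The profile of all protein-coding genes fell at the start too. It stood at 3.54% at 550 bp into the gene, and at 2.68% and 2.71% at 50 bp before and after the start. The gaps of the 7 genes with peaks on both sides in NC were 362 to 1014 bp long. Their GC content was 70.1% to 81.3%, above the 58.5% to 65.5% of the peaks beside them in every one of the 7. The gap of WNT3A was 604 bp long and 81.3% GC, with 63.3% in its peaks. The same order of GC held in 7 of 7 gaps in ΔLINC00641 and 9 of 9 in ΔSETD5-AS1. Genes such as WNT3A and IHH recur in all 3 lists, so these are not separate cases. No like stretch was measured at covered starts or at other genes. How far reads from very GC-rich sequence were recovered in these libraries was not tested.

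**Figure D3:**
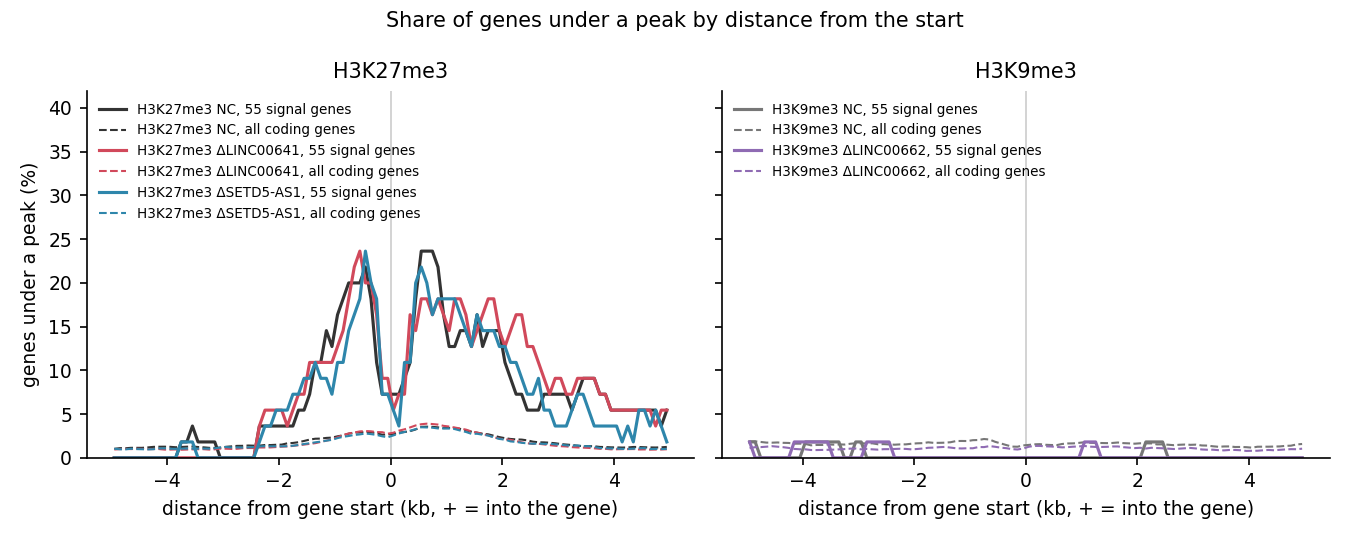
The share of genes under a peak (%) is plotted in steps of 100 bp against the distance from the gene start (kb, positive into the gene), with solid lines for the 55 signal genes and dashed lines for all protein-coding genes, H3K27me3 on the left and H3K9me3 on the right. The solid H3K27me3 lines reach 23.6% on the sides and drop at the start. The H3K9me3 lines of the signal genes never pass 1.82%, which is 1 gene of 55. Those of all genes reach 2.15% in NC and 1.36% in ΔLINC00662.

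**Figure D4:**
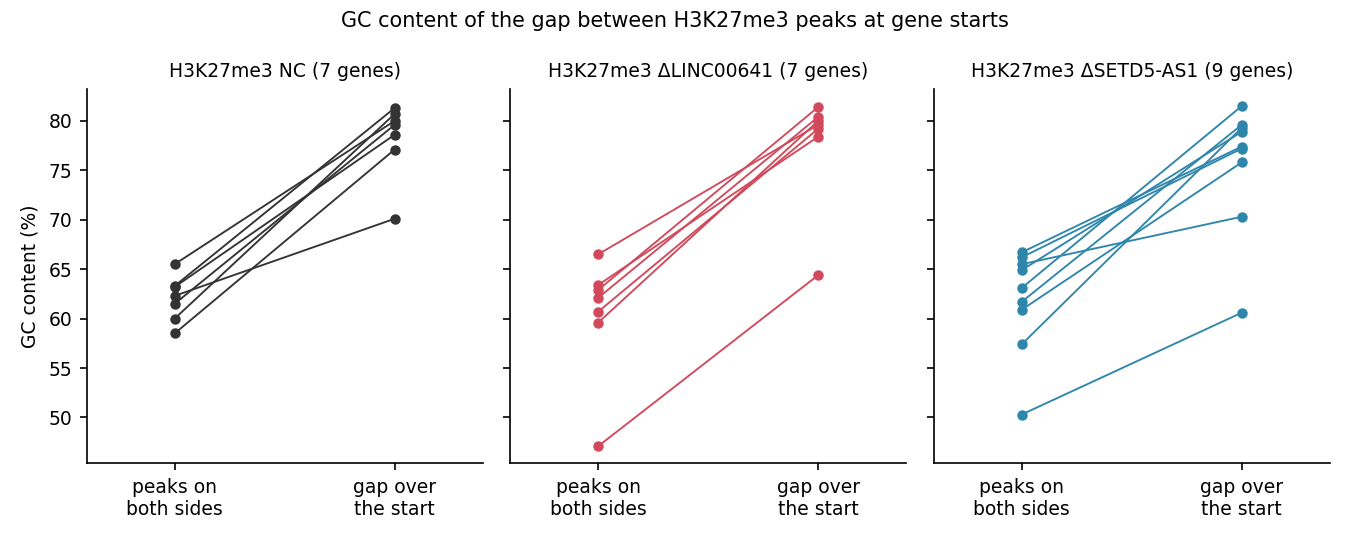
GC content (%) is compared between the H3K27me3 peaks on both sides of a gene start and the uncovered gap between them, with 1 line per signal gene and 1 panel per list (7, 7 and 9 genes). All lines rise towards the gap.

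At the annotated 5′ ends, promoters of members with an NC H3K27me3 peak were richer in CpG than those of the other members. Over 1 kb on each side of the start, the 17 genes with a peak had a median GC content of 65.6% and a median observed-to-expected CpG ratio of 0.728, and 15 of 17 had a ratio of at least 0.6. The 38 genes without one had medians of 58.1% and 0.645, with 20 of 38 at or above 0.6. The ranges of the ratio, 0.501 to 0.936 and 0.0813 to 1.01, overlap. For all protein-coding genes the split was not of the same kind, since the 1304 genes with an NC promoter peak had a median ratio of 0.599 and the 17925 without one 0.617. The widely covered genes SHH (0.530) and FGF10 (0.501) had the lowest ratios among the 17. Conversely, BMP2, with 1.01 the highest ratio of all members, and INHBB, with 0.942, had no promoter peak. Of the 14 members whose canonical start lies over 1 kb from the 5′ end used here, all but WNT11 were among the 38. DKK2 (0.0813) and WNT16 (0.207) are among them, and both had NC peaks at their canonical starts. The ratios were not computed at canonical starts, so the split holds for the annotated 5′ ends only.

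The comparison of NC with the ASO groups asks whether lowering LINC00641 or SETD5-AS1 changed where H3K27me3 lay on these genes. Promoter peaks were present in all 3 lists at 13 members, namely WNT2, WNT3A, WNT6, WNT7A, WNT7B, WNT9A, FGF3, FGF10, BMP6, GDF10, SHH, IHH and SFRP5. Between NC and ΔLINC00641, 4 of the 17 NC promoter peaks were absent (23.5%), beside 17.3% for all genes, and 4 of the other 38 members had a promoter peak only in the knockdown (10.5%), beside 1.65%. Absent were WNT1, WNT4, WNT11 and GREM1, and newly called were WNT5B, FGF20, BMP7 and GDF7. Between NC and ΔSETD5-AS1, 3 of 17 were absent (17.6%), beside 21.5%, and 2 of 38 were newly called (5.26%), beside 1.31%. Absent were again WNT1, WNT4 and WNT11, and newly called were WNT5B and BMP3. The call at WNT4 and WNT5B depended on the start used. With the canonical start, WNT4 had a promoter peak in both NC and ΔLINC00641, and WNT5B, whose canonical start is 99340 bp away, had none in any list. At another annotated start of WNT5B, 928 bp into the gene, all 3 lists had a peak. Both comparisons share the NC list, so a peak that was weak in NC enters each of them. For new calls the share of all genes is not a like measure. Members had promoter peaks more often in each H3K27me3 list (30.9% beside 6.78% in NC). There was no second NC list to show how many new calls arise without a knockdown.

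These peaks ran from near the calling threshold to above the median of their list, which was a −log10 q of 3.72 for NC, 3.85 for the ΔLINC00641 list and 3.56 for that of ΔSETD5-AS1. The NC promoter peaks of WNT1, which is required for the midbrain, and WNT11, a signal of cell movements, had 21 fragments (13.0 to 32.1) at 2.14-fold and 24 (15.4 to 35.7) at 2.07-fold, with −log10 q of 1.78 and 1.83. WNT4, a kidney and ovary signal, had 25 fragments (16.2 to 36.9) at 3.10-fold in NC and a −log10 q of 4.49. GREM1 (gremlin), a BMP antagonist whose upstream peak lies in GREM1-AS1, had the highest −log10 q of the absent ones, 8.69, with 24 fragments (15.4 to 35.7) at 5.15-fold and at the genome-wide input level in NC, 27 fragments at 5.15-fold in ΔSETD5-AS1, and no peak in ΔLINC00641. Of the new ones, WNT5B had 37 fragments (26.1 to 51.0) at 2.84-fold in ΔLINC00641 and 26 (17.0 to 38.1) at 2.58-fold in ΔSETD5-AS1, upstream of a start that in NC had its nearest peak inside the gene. FGF20 had 25 fragments (16.2 to 36.9) at 2.85-fold, BMP7, a kidney and eye signal, 28 (18.6 to 40.5) at 2.98-fold, and GDF7 24 (15.4 to 35.7) at 2.06-fold, all in ΔLINC00641. BMP3 had 26 (17.0 to 38.1) at 2.69-fold in ΔSETD5-AS1. Among the new promoter peaks the −log10 q ran from 1.78 at GDF7 to 5.62 at WNT5B in ΔLINC00641.

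With any peak in the window, 4 of 25 members (16.0%) lost their last H3K27me3 peak in ΔLINC00641, beside 16.3% of all genes, and 7 of 30 (23.3%) gained one, beside 2.81%. In ΔSETD5-AS1 6 of 25 (24.0%) lost it, beside 16.9%, and 5 of 30 (16.7%) gained one, beside 3.21%. Here too members had peaks more often in each H3K27me3 list (45.5% beside 14.6% in NC). The gains therefore cannot be set against all genes as like for like, nor ascribed to the knockdowns. WNT9B, which induces kidney tubules, FGF5, a regulator of hair length, and FGF8 had peaks in both knockdown lists and not in NC. They covered 376 and 684 bp at WNT9B, 454 and 369 bp at FGF5, and 611 and 633 bp at FGF8. FGF9, with 269 bp, and GDF6, with 291 bp, had one in ΔLINC00641 only.

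**Figure D5:**
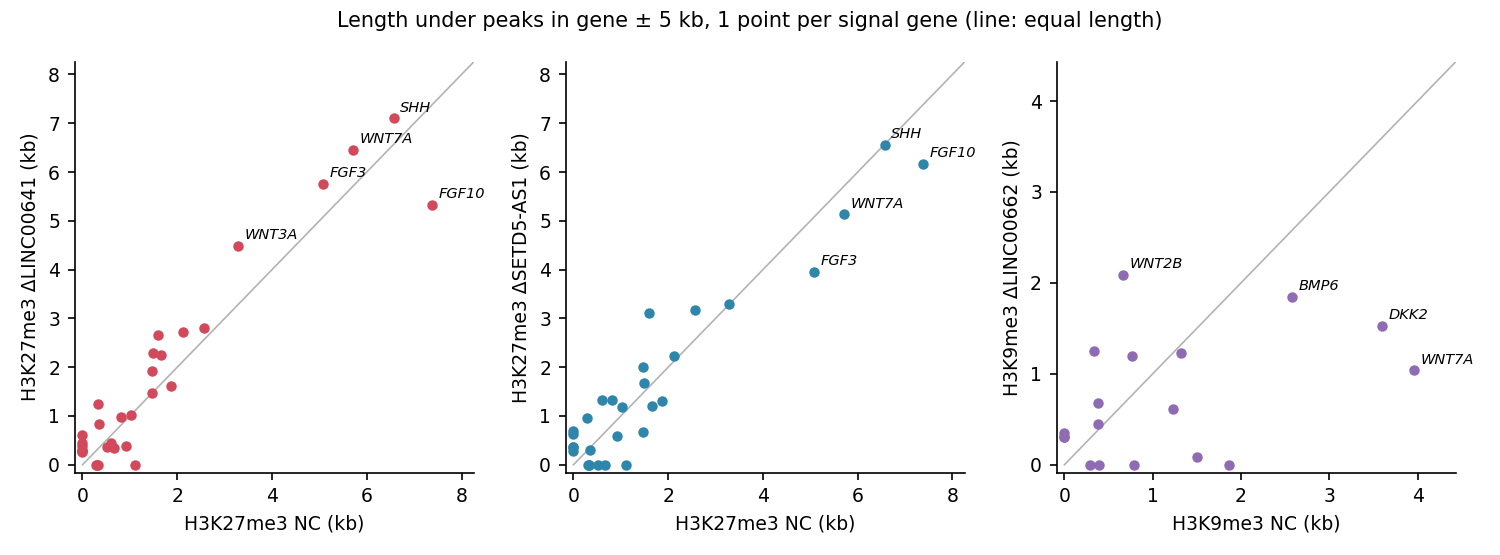
The length under peaks in the gene and 5 kb on each side (kb) is plotted for each signal gene with a peak in at least 1 of the 2 lists, NC on the x axis and the knockdown on the y axis, and the line marks equal length. For H3K27me3, FGF10 lies below the line in both knockdowns, and FGF3 lies above it in ΔLINC00641 (5.08 kb in NC and 5.76 kb) and below it in ΔSETD5-AS1 (3.96 kb).

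The length of H3K27me3 in the member windows was 1.11 times that of NC in ΔLINC00641, longer at 20 members, shorter at 11, equal at 1 and 0 at 23. Over all protein-coding windows the ratio was 0.826. In ΔSETD5-AS1 it was 0.980, longer at 15 members and shorter at 15, beside 0.887 for all genes. Without FGF10 the ratios were 1.18 and 1.01, so the direction in ΔSETD5-AS1 rests on that gene. The GC content of peaks moved with these ratios. In the autosomal lists the summed peak length was 0.375 of NC in ΔLINC00641 in the lowest of 5 equal groups of peaks by GC content and 1.21 in the highest group, where 39 of 55 NC and 41 of 53 ΔLINC00641 peaks of the members lay. For ΔSETD5-AS1 the ratios were 0.543 and 1.07, with 40 of 55 and 46 of 60 member peaks in the highest group. The part of GC content in the members' ratios was not tested.

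Of the 55 NC H3K27me3 peaks in the windows, 32 overlapped a ΔLINC00641 peak (58.2%, Wilson interval 45.0% to 70.3%), beside 51.6% of all autosomal NC peaks, and 35 a ΔSETD5-AS1 peak (63.6%, 50.4% to 75.1%), beside 55%. In the other direction, 31 of 53 ΔLINC00641 peaks (58.5%, 45.1% to 70.7%) and 39 of 60 ΔSETD5-AS1 peaks (65.0%, 52.4% to 75.8%) had a partner in NC, beside 65.7% and 60.5% of the autosomal peaks of these lists. The member share was thus below the autosomal one for ΔLINC00641 in this direction and above it in the other 3 cases, and all 4 autosomal shares lie within the members' intervals. When every list was restricted to peaks whose −log10 q reached 5, 23 of 27 NC peaks were found in ΔLINC00641 (85.2%, 67.5% to 94.1%), beside 48.3% of such autosomal peaks, and 20 of 27 in ΔSETD5-AS1 (74.1%, 55.3% to 86.8%), beside 46.0%. All these intervals treat peaks of the same gene as independent. The autosomal shares were not matched to the members in GC content, peak length or −log10 q, and the part of these was not tested. Over all NC H3K27me3 peaks the median −log10 q was 4.94 in the member windows and 3.72 on the autosomes.

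Where a peak had a single partner in the other list, the fold enrichment could be compared. For ΔLINC00641 the median log2 ratio to NC over 27 pairs was 0.16, with 19 above 0 and 8 below, and a range of -0.41 to 1.03. The median over all autosomal pairs was 0.005. The highest ratio was at the upstream peak of WNT6, 2.86-fold with 30 fragments (20.2 to 42.8) in NC and 5.84-fold with 49 (36.3 to 64.8) in ΔLINC00641. For ΔSETD5-AS1 the median over 26 pairs was -0.08, with 10 above 0 and 16 below, and a range of -1.10 to 0.60, beside -0.076 for all autosomal pairs. The lowest was the upstream peak of IHH, whose summit fragments, given above, had overlapping intervals while its local input went from 1.38 to 2.33 times the genome-wide level. The upstream peak of WNT7B was similar, with 70 and 67 fragments at 6.54-fold and 3.57-fold, and with 2.56 and 4.08 times input. Other lowered pairs had fewer fragments at a like input. The promoter peak of WNT7B inside the gene had 45 fragments (32.8 to 60.2) in NC and 32 (21.9 to 45.2) in ΔSETD5-AS1, at 2.14 and 2.21 times input (log2 ratio -0.70), and the upstream peak of SFRP5 had 30 (20.2 to 42.8) and 22 (13.8 to 33.3), at 1.92 and 1.94 times input (-0.63). The genome-wide input level of ΔSETD5-AS1 was 1.15 times that of NC, and fragments are not scaled for it.

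H3K9me3 lay away from the starts of the signal genes. In NC the windows held 29 peaks over 0.760% of their bases, beside 1.51% for all protein-coding windows. Of these peaks 22 had an intronic summit, 3 an upstream one, 4 a downstream one and none one in an exon. The median distance from summit to gene start was 26752 bp, and no summit was within 1 kb. Windows are long, up to 372005 bp at DKK2, and neither the places nor the distance was computed for all genes. WNT7A and DKK2 had the longest coverage. At WNT7A, 2 NC peaks covered 3957 bp around the 3′ end of the gene, with the strongest summit 64652 bp from the gene start, and the larger, chr3:13855284-13858802, had 49 fragments (36.3 to 64.8) at 5.34-fold and 1.95 times input. In ΔLINC00662, 1042 bp remained under 2 peaks, and the peak within the larger one had 22 fragments at 2.06-fold and 2.9 times input. DKK2 had 6 intronic peaks over 3601 bp in NC, the strongest with 23 fragments (14.6 to 34.5) at 4.53-fold at the genome-wide input level, and 3 over 1532 bp in ΔLINC00662, the strongest with 16 (9.15 to 26.0) at 3.41-fold and 1.14 times input. BMP6 had 4 peaks over 2575 bp and 3 over 1855 bp, and BMP7 3 over 1858 bp in NC and none in ΔLINC00662.

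The only H3K9me3 promoter peak of a member was at GREM1 in ΔLINC00662, 1 of 55 members without one in NC (1.82%), beside 1.32% for all genes. It had 25 fragments (16.2 to 36.9) at 3.45-fold, but only 23 bp of it lay within 1 kb of the start and its summit was 1103 bp into the gene. With any peak, 4 of 15 members (26.7%) had H3K9me3 in NC and not in ΔLINC00662, beside 24.2% of all genes, and 3 of 40 (7.50%) the reverse, beside 5.69%. The first were WNT8B, WNT9B, BMP7 and GDF6, and the second FGF10, BMP5 and GREM1. The 11 members with a peak in both lists were WNT2, WNT2B, WNT3A, WNT5B, WNT7A, WNT9A, FGF5, BMP6, DKK1, DKK2 and SFRP2. WNT2B, one of the genes without H3K27me3, had 668 bp in NC and 2094 bp in ΔLINC00662, all in introns. The covered length in the member windows was 0.647 of that in NC, beside 0.575 for all protein-coding windows and 0.602 for the autosomal lists, and 0.742 without WNT7A. It was shorter at 10 members and longer at 8. GC content and depth moved with it, since 8 NC and 0 ΔLINC00662 member peaks lay in the lowest of the 5 GC groups, and the genome-wide input level of ΔLINC00662 was 0.815 of that of NC. Their part was not tested. Of the 29 NC peaks, 9 were found in ΔLINC00662 (31.0%, 17.3% to 49.2%), beside 38.0% of autosomal peaks, and 9 pairs had a median log2 fold ratio of 0.09, from -1.38 to 0.74.

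Both marks were present in the NC window of 8 members, WNT2, WNT3A, WNT5B, WNT7A, WNT8B, WNT9A, BMP6 and DKK2. These are 14.5% of the members, beside 8.66% of all genes with both, and 32.0% of the 25 members with H3K27me3, beside 59.4% of such genes. Window length was not matched between members and other genes, and its part in these shares was not tested. The marks did not share a base in any member window, with 0 bp under both.

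The other genes of the pathways were taken as lists by their function, also chosen with earlier results of these data known. Each list had a lower share of H3K27me3 promoter peaks in NC than the 30.9% of the signals. The lists stood on both sides of the 6.78% of all protein-coding genes. Of 36 receptors and coreceptors, 2 (5.56%) had one, FZD10 with 3942 bp in its window and HHIP, a decoy receptor for hedgehogs, with 1573 bp. Of 42 transducers and transcription factors none did in NC, and DUSP6, a phosphatase induced by FGF signals, had 536 bp elsewhere in its window. These 42 genes had 2 promoter peaks in ΔLINC00641 and 1 in ΔSETD5-AS1. Of 33 further secreted ligands and antagonists 5 (15.2%) had one in NC, or 3 of the 30 on chromosomes 1 to 22, where the 6.78% was counted. CHRDL1, on the X chromosome, had 98714 bp covered, CHRDL2, a BMP antagonist, 2452 bp, and WIF1, which binds WNTs, 1042 bp. None of the 36, 42 or 33 genes had an H3K9me3 promoter peak in NC or in ΔLINC00662.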

How the data were processed

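The 30 samples were grouped by their titles into 10 groups, and the 5 peak lists, 1 for each ChIP group, were used. According to the methods, reads were cut with cutadapt 3.3, mapped on hg19 by Bowtie2 2.4.2 and freed of duplicates by GATK, after which the authors pooled the 3 replicates and ran MACS2 2.2.7.1 against pooled input. The authors deposited for each peak a fold enrichment (ratio of summit fragments to local input) and the −log10 p-value and −log10 q-value.

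Whole fragment numbers and local input were solved from the fold and the p-value of each peak. They were recovered for 99.86% to 100.00% of peaks and for every peak near the 55 genes, and gave the depth. Genes came from GENCODE 44 in its GRCh37 version, which shares the coordinates of hg19. A peak overlapped another by at least 1 bp. Shares have Wilson and fragments exact Poisson 95% intervals. GC and CpG were computed from GRCh37. Described most fully were the 3 genes of each family with the longest NC coverage, and promoter peaks that differed between lists. The 55 genes and all lists were chosen with earlier results of these data known. The alternatives required a −log10 q of 5 or more, took the strongest peaks in equal number, or used summits, other transcript starts, the gene span alone, merging within 1 kb, 50% overlap, and leaving out peaks with input over 5 times the genome-wide level. Functions were tested on simulated data. Scripts ran in Python 3.11.15 with pysam 0.24.0, scipy 1.17.1, pandas 2.3.3 and numpy 2.4.6.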

Additional observations from a re-analysis of the deposited data

How the results depend on the processing

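Of 100 recomputed values over 20 results, 88 stayed within 1.5 times a count or ratio, within the Wilson interval of a share, or within 0.1 of a log2 ratio, 10 moved further and 2 changed direction. Among the 88, the count of members with both marks in NC without peaks of input over 5 times was recorded as 11 (8). Leaving out peaks cannot raise a count, so this value is in error and checks nothing. The highest local input at a member peak of any list was 4.88 times the genome-wide level. Leaving out peaks over 5 times therefore could not move any of the results, and its unchanged values among the 88 check nothing either. The alternative with the canonical transcript start was chosen after seeing the data and moved no count by over 1.5 times. A −log10 q of at least 5 left fewer peaks by construction. With it, 10 members had an H3K27me3 promoter peak in ΔSETD5-AS1 (16 with all peaks), 15 had any H3K27me3 peak in NC (25) and 15 in ΔSETD5-AS1 (24), 6 had any H3K9me3 peak in NC (15) and 7 in ΔLINC00662 (14), and 3 had both marks in NC (8). The share of NC H3K27me3 peaks found in ΔLINC00641 was then 85.2% (58.2%), and the median log2 fold ratio was -0.25 (-0.08) for ΔSETD5-AS1 and -0.32 (0.09) for H3K9me3 in ΔLINC00662, where the direction turned. The cause of these shifts in ratio was not tested. When lists were cut to the same number of strongest peaks, the length ratio of ΔSETD5-AS1 turned from 0.980 to 1.02. By summits, 0 members had an H3K9me3 promoter peak in ΔLINC00662 (1). With an overlap of at least 50%, 17.2% of NC H3K9me3 peaks were found in ΔLINC00662 (31.0%).

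No paired analysis was possible because each list comes from 3 pooled replicates, and for the same reason no replicate could be left out. Pooling also hides the spread between replicates, so none of the differences between lists has an error from biological repeats. The median summit near these genes held 22 to 32 fragments, and a promoter peak near the threshold can appear or vanish by counting error. The lists differ in depth and in the GC content of their peaks.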
